A study of Mus musculus with 3 samples.

Results

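The oligodendrocyte lineage is represented here by 7 mouse genes, the transcription factors Olig1, Olig2 and Nkx2-2, the progenitor surface proteins Pdgfra and Cspg4, the receptor Gpr17 and the myelin gene Mbp. They were picked by name out of 21887 protein-coding genes, and each locus was taken as the gene body plus 50 kb on either side. Binding of MEIS2, a TALE homeodomain protein that regulates transcription, was mapped by CUT&Tag, a method that brings Tn5 transposase to the bound protein through an antibody and tags the DNA around it. All 3 libraries came from lateral ganglionic eminence (LGE), the embryonic source of striatal projection neurons, of CD1 mice at E14.5, with 100000 cells each. A mouse polyclonal anti-MEIS2 antibody was used for 2 libraries, called replicates 1 and 2, and no primary antibody for the third. The mice were wild-type, the labels name no treatment, and they do not say whether the libraries came from separate embryos. Peaks are called reproducible where a peak of replicate 1 shares at least 1 bp with one of replicate 2 and none with a no-antibody peak. The 7 loci held 28 of the 47809 reproducible peaks of the series.

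Oligodendrocytes are the glia that wrap axons in myelin. Their progenitors arise in the ventral forebrain, where OLIG2 specifies them, and they carry the PDGF receptor alpha and the NG2 proteoglycan while they divide and migrate. Progenitors that leave the cell cycle pass through a stage marked by GPR17 and then make myelin proteins such as myelin basic protein. In the ganglionic eminences at this age neurons are still being made, and OLIG1 and OLIG2 are known there also from neural progenitors.

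All 7 loci carried reproducible MEIS2 peaks, from 2 at Pdgfra to 6 at Mbp and at Gpr17, as did 92.8% of all protein-coding genes, so 7 of 7 says nothing particular. No locus of the 7 carried a no-antibody peak, against 26.6% of protein-coding genes. Olig1, Mbp and Nkx2-2 had a peak with its summit within 1 kb of a gene end, 3 of 7 (42.9%) against 52.4%, while Olig2, Pdgfra, Cspg4 and Gpr17 did not. Each of the 7 genes had at least 1 summit inside the gene, against 59.9% of protein-coding genes of all lengths. That share was 36.1% for genes shorter than 10 kb, as only 3 of the 7 are, so it is not matched for length. The peaks were mostly weak: 23 of 28 (82.1%) lay below the series' median for the lower of the replicates' fold enrichments, 5.94, and the median at the 7 loci was 5.03. Fold enrichment is the peak caller's ratio of the tags stacked at the summit to the number expected locally, and pileup is that number of stacked tags. Because the tissue was bulk, a weak peak in many cells and a strong peak in few cells cannot be told apart.

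**Figure D1:**
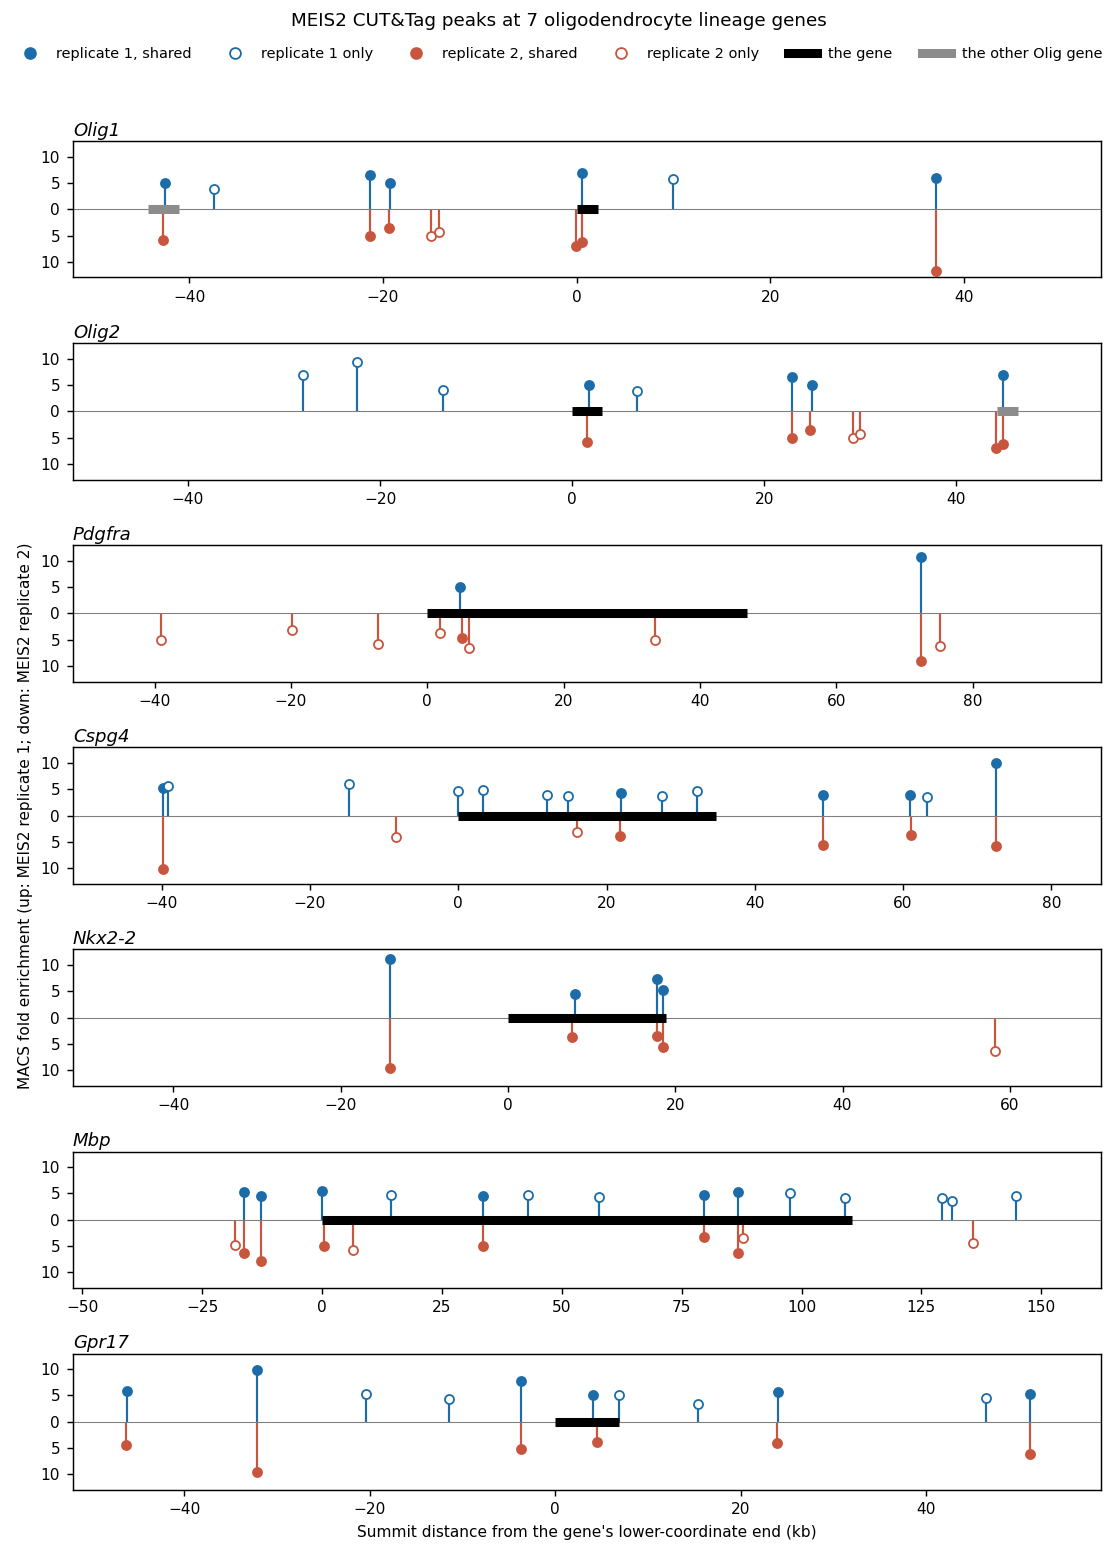
Fold enrichment of every MEIS2 peak at the 7 loci, upward for replicate 1 and downward for replicate 2, against the distance of its summit from the gene's lower-coordinate end in kb, in genome orientation. Filled circles are peaks shared by both libraries (28 reproducible peaks of replicate 1 and their 29 partners), open circles are peaks of 1 library (27 and 16), and no no-antibody peak lies in any panel.

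Peak tables of the MEIS2 libraries held 78060 and 82093 peaks, and that of the no-antibody library 9869, from 7618406, 6559629 and 6337375 tags after removal of repeated positions. Before that removal the libraries had 74259592, 79760948 and 72763762 tags, and the peak caller gave redundant rates of 0.90, 0.92 and 0.91. Peaks locate stretches where tags were enriched and do not measure expression, so the tissue label could be set only against peaks at gene ends. Of the LGE genes Dlx1, Dlx2, Gsx2, Isl1 and Foxp2, 4 of 5 had one, and so did 2 of 5 genes of blood, vessels and microglia (Cldn5 and Csf1r, not Hbb-bt, Pecam1 or Cx3cr1), against 52.4% of all protein-coding genes. Dlx1, the LGE gene without one, had a reproducible peak over its promoter window. With 1 control library there is no test of MEIS2 against control, and fold enrichments of shared peaks are given for replicate 1 and then replicate 2. Positions, widths and distances are those of replicate 1 unless replicate 2 is named.

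Olig1 and Olig2 are neighbouring genes for basic helix-loop-helix factors that set up the lineage. They lie 41.1 kb apart on chromosome 16 (mm10, 91269769-91271939 and 91225550-91228677), so their windows share 4 of the 5 reproducible peaks found at the pair. The peak over the lower-coordinate end of Olig1, chr16:91269599-91270804, was 1206 bp wide, wider than 98.0% of reproducible peaks. Its fold enrichment in replicate 1 was 6.96, with a pileup of 22 tags. Replicate 2 split the same stretch into 2 peaks of 269 and 589 bp. Their fold enrichments were 6.96 and 6.26, with pileups of 17 and 15 tags. The summit in replicate 1 lay 607 bp inside the gene, and those of replicate 2 lay 75 bp outside and 606 bp inside it. Nothing was called in the no-antibody library nearer than 70.6 kb from Olig1.

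Olig2 had its peak in the gene and not at its start. The peak at chr16:91226818-91227444 had fold enrichments of 4.99 and 5.76 and pileups of 22 and 18, as many tags as at Olig1. Its summit lay 1782 bp downstream of the annotated start site in replicate 1 and 1499 bp in replicate 2. A pair of peaks lay between the genes, at chr16:91248344-91248578 (fold enrichments 6.51 and 5.16) and chr16:91250326-91250598 (5.11 and 3.55). These intergenic summits stood 19.7 and 21.8 kb beyond Olig2. The libraries were uneven at a peak 34.9 kb beyond Olig1, chr16:91306725-91306952, with fold enrichments of 6.01 and 11.8. It stood at the 46.8th percentile of replicate 1 peaks and the 91.8th of replicate 2 peaks. On the far side of Olig2, 3 peaks were called in replicate 1 alone, the strongest at chr16:91202980-91203294 with a fold enrichment of 9.41.

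Nkx2-2 encodes a homeodomain factor that acts in the differentiation of progenitors. It lies on the minus strand of chromosome 2 (147176485-147195434), and all 4 peaks of replicate 1 at the locus were reproducible. The strongest, chr2:147162221-147162590, lay 14.1 kb past the gene's 3′ end. Its fold enrichments were 11.2 and 9.56 with pileups of 18 and 14, and the summits of the libraries were 2 bp apart. By the lower fold enrichment it exceeded 85.2% of reproducible peaks. Inside the gene, chr2:147183965-147184632 (4.40 and 3.62) had its summit 1834 bp downstream of the start site in replicate 1 and 2281 bp in replicate 2, at an end of the antisense RNA gene Nkx2-2os.

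The other two Nkx2-2 peaks lay in the long upstream part of the gene record, which reaches beyond the promoter table's start site. At chr2:147194777-147195156 the fold enrichments were 5.31 and 5.54, the summits of the libraries coincided, and they lay within the gene, 360 bp short of its higher-coordinate end. The neighbouring peak chr2:147194012-147194522 was uneven between libraries, with fold enrichments of 7.38 and 3.46 and pileups of 23 and 7. These summits lay 8672 and 7950 bp upstream of the start site that the promoter table gives. All 3 peaks inside Nkx2-2 also lay inside Nkx2-2os, so neither gene can be named as the one they belong to.

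Pdgfra encodes the receptor through which PDGF-A keeps progenitors dividing. On chromosome 5 (75151322-75198206) it had the fewest reproducible peaks of the 7 genes. One lay 3862 bp downstream of its start site (4163 bp in replicate 2), at chr5:75155847-75156693, with fold enrichments of 5.03 and 4.69 and pileups of 19 and 15. The other, chr5:75223595-75223869, was one of the 3 peaks at these loci above the 80th percentile of reproducible peaks. It lay 25.5 kb beyond the gene, with fold enrichments of 10.8 and 9.0, pileups of 21 and 15 and summits 11 bp apart. Library counts were uneven here: replicate 1 had 2 peaks and replicate 2 had 9, and 7 of those 9 had no replicate 1 partner. Among them was a peak 866 bp past the start site, at chr5:75152927-75153242, with a fold enrichment of 3.79, and one at chr5:75157275-75157450 with 6.55 and a pileup of 22. Neither library had a peak over the start site itself.

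The Pdgfra start site was the only one of the 4 member start sites in the promoter table with the hexamer TGACAG, the core that MEIS proteins are known to prefer, on either strand from 250 bases before to 50 after it. The 30 bases around it are shown because no peak was called over them, beside the same stretch for Cntn1 and Tcf7l2, whose promoter windows were the only ones of 49 windows of other lineage genes to hold both the hexamer and a reproducible peak. Capitals mark TGACAG or its reverse complement CTGTCA, sequences run 5′ to 3′ on the plus strand, and the source is RefSeq (GRCm38.p6).
Pdgfra, chr5:75152236-75152265: gacttcatttccTGACAGctatttacttta
Cntn1, chr15:92051174-92051203: ccccggctactgCTGTCAagtagctagggt
Tcf7l2, chr19:55741804-55741833: gttcctctcgccCTGTCAataatctccgct
The reproducible peak at Cntn1, chr15:92051166-92051895, covers the hexamer, and the one at Tcf7l2, chr19:55741470-55741759, ends before it. The hexamer was in 19.2% of all 32851 promoter windows of that source, in 14.7% of those overlapping a reproducible peak and in 21.5% of the rest. The composite site of PBX and MEIS proteins, searched as the hexamer with TGAT directly before it on either strand, was in 0.222% of all windows and in none of the windows of the 7 genes or the other lineage genes. The table holds no window for Olig1, Mbp or Gpr17.

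Cspg4 encodes NG2, the proteoglycan on the surface of progenitors and pericytes. On chromosome 9 (56865104-56899870) it had 14 peaks in replicate 1 and 7 in replicate 2, of which 5 were reproducible. Only 1 of the 5 lay inside the gene, at chr9:56886895-56887157, 21.9 kb from the start site, with fold enrichments of 4.28 and 3.99. The strongest of the window in replicate 1, chr9:56937506-56937954 (10.0 and 5.74), lay 37.8 kb beyond Cspg4, with its summit 201 bp from an end of Imp3, a gene for a ribosomal RNA processing protein. Further peaks lay inside Snx33, at chr9:56925768-56926249 (3.90 and 3.80), and 2936 bp from its end, at chr9:56914124-56914498 (3.83 and 5.63). The fifth, chr9:56825106-56825279, lay 39.9 kb before the gene with fold enrichments of 5.23 and 10.1 and pileups of 8 and 16.

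At the Cspg4 promoter a peak was called in 1 library only. Replicate 1 had chr9:56864930-56865135, with its summit 66 bp upstream of the start site, a fold enrichment of 4.75 and a pileup of 12, and replicate 2 had no peak over it. The 250 bases before the start site (chr9:56864854-56865103, plus strand, RefSeq, GRCm38.p6) are shown because this is the only one of the 4 member promoters in the table with a peak over it in either MEIS2 library, with the 174 bases under that peak in capitals. Below it stands, for comparison, the promoter of Ptprz1 (chr6:22875252-22875501, plus strand), which had the strongest reproducible gene-end peak of the other lineage genes, with 243 bases under the peak.
Cspg4: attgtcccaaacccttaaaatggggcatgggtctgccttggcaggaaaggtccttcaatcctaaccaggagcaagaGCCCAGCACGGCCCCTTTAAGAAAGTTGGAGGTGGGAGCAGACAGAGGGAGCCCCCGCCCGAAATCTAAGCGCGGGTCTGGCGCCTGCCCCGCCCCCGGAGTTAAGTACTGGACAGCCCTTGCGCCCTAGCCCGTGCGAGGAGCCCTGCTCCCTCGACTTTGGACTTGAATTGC
Ptprz1: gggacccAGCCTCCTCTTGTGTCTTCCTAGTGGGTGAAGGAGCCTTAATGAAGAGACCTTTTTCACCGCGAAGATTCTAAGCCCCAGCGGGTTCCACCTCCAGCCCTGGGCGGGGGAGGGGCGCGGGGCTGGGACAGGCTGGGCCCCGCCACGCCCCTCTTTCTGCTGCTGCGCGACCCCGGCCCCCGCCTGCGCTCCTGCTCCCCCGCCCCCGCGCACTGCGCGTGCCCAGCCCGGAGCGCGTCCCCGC
Neither holds TGACAG in these letters on either strand.

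Gpr17 encodes a G protein-coupled receptor of committed, premyelinating cells. It lies inside the longer gene Lims2 on chromosome 18 (31942999-31949890), and its window held 6 reproducible peaks, 5.61 per 100 kb, the densest of the 7. The strongest, chr18:31910518-31911310, lay inside Sft2d3, 32.2 kb from Gpr17. Its fold enrichments of 9.89 and 9.69 differed little between libraries, its pileups were 23 and 20, and by the lower fold it exceeded 85.8% of reproducible peaks, the highest rank at the 7 loci. The peak inside Gpr17, chr18:31947013-31947492, was weaker, with fold enrichments of 5.07 and 3.84 and pileups of 12 and 7. Between them in strength was chr18:31939018-31939487 (7.77 and 5.15), 3676 bp below the gene, inside Lims2 and at an end of the RNA gene Gm46619. Further peaks lay in Wdr33, at chr18:31896659-31896954 (5.88 and 4.46), and in Myo7b, at chr18:31966850-31967138 (5.63 and 4.12) and chr18:31994100-31994377 (5.28 and 6.25). A peak 54 bp from the higher-coordinate end of Gpr17, chr18:31949782-31949973, was called in replicate 1 alone, with a fold enrichment of 5.14.

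Mbp encodes myelin basic protein, and its long transcription unit also makes the golli proteins, which are found outside myelin. It spans 110547 bp of chromosome 18 (82475091-82585637), and its window held 14 peaks in replicate 1 and 10 in replicate 2, with 6 reproducible. The peak over its lower-coordinate end, chr18:82474927-82475977, was 1051 bp wide, against 1025 bp in replicate 2, and wider than 96.1% of reproducible peaks. Fold enrichments there were 5.45 and 5.07 and pileups 14 and 9, and the summits lay 37 bp from the end in replicate 1 and 341 bp in replicate 2. No start site was at hand for Mbp, so this end was not assigned to the golli or the myelin basic protein transcripts. Outside the gene, chr18:82458571-82458886 (5.24 and 6.29) and chr18:82462263-82462539 (4.54 and 7.95) lay 16.4 and 12.7 kb below it. Inside it, chr18:82508605-82508837 had 4.54 and 5.10, and chr18:82561718-82561889 had 5.19 and 6.42. The weakest by the lower fold of all 28 peaks was chr18:82554632-82554946 (4.70 and 3.41), in Mbp and at an end of the RNA gene Gm52337. No Mbp peak reached the series' median of lower fold enrichment, and the highest lower value there was 5.24.

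**Figure D2:**
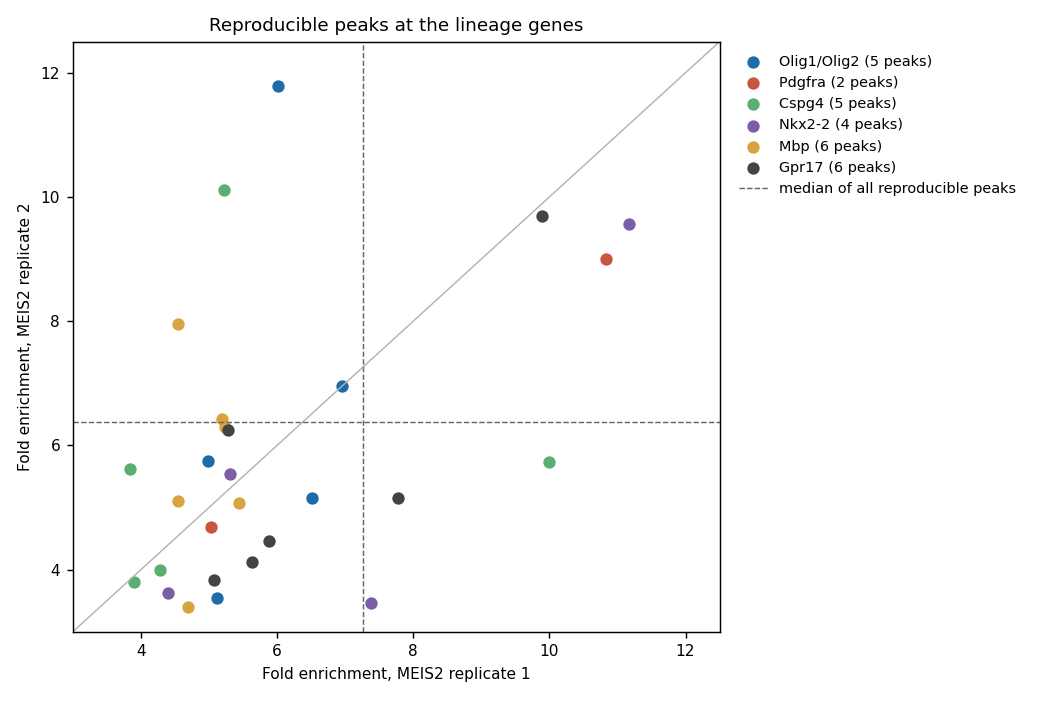
Fold enrichment in MEIS2 replicate 1 (x axis) and replicate 2 (y axis) of the 28 reproducible peaks, coloured by locus, with the diagonal and, as dashed lines, the medians of all 47809 reproducible peaks (7.26 and 6.38). The strongest peaks of the Nkx2-2, Pdgfra and Gpr17 windows (9.56, 9.0 and 9.69 in replicate 2) stand above both medians, and most others lie below both.

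Across the 28 peaks, fold enrichment ran from 3.83 to 11.2 in replicate 1, with a median of 5.26, and from 3.41 to 11.8 in replicate 2, with a median of 5.35. The medians of all reproducible peaks were 7.26 and 6.38. Values were higher in replicate 1 at 18 peaks and in replicate 2 at 10. Ranked among all peaks of their own library, 12 stood higher in replicate 2. Neither split is given for all reproducible peaks. The 3 peaks above the 80th percentile, near Nkx2-2, Pdgfra and Gpr17, all lay outside the gene they were assigned to, by 14.1, 25.5 and 32.2 kb. Summits of the libraries, taking the nearer of the 2 replicate 2 summits at Olig1, lay a median of 56.5 bp apart, and at most 447 bp, at the peak inside Nkx2-2. Of the 28 summits, 12 lay inside a member gene, 7 inside another protein-coding gene only, and 9 in no annotated gene. The same split is not given for all reproducible peaks, so these counts only place the peaks. The shared peaks had median pileups of 13 and 10 tags, so single tags weigh on each value.

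How far the peaks repeated depended on the library they were counted from. Of 55 replicate 1 peaks at the 7 loci, 28 (50.9%) were reproducible, against 61.2% over the series. Of the 45 replicate 2 peaks, 29 (64.4%) had a replicate 1 partner and no no-antibody peak, against 59.2%. The direction thus differs between the libraries, and neither share was tested, since peaks are not replicates. By locus, all replicate 1 peaks were reproducible at Nkx2-2 (4 of 4) and Pdgfra (2 of 2), and 5 of 14 at Cspg4. The 27 peaks of replicate 1 alone had a median fold enrichment of 4.60 and ran from 3.29 to 9.41, and the 16 of replicate 2 alone had 4.94, from 3.16 to 6.55.

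**Figure D3:**
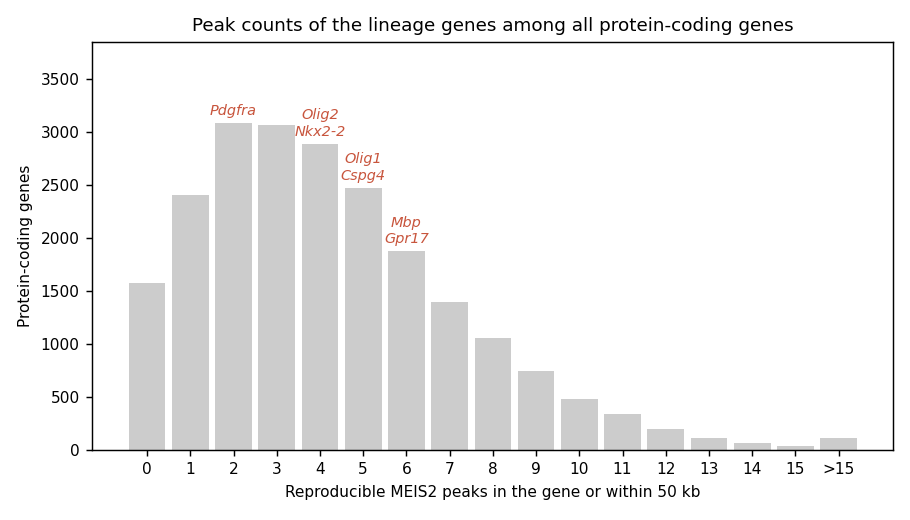
Number of protein-coding genes (y axis) by their count of reproducible MEIS2 peaks in the gene or within 50 kb (x axis), with the 7 lineage genes written above the bar they fall in. The 7 genes lie between 2 and 6 peaks, around the median of 4 of all 21887 genes.

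Set against all protein-coding genes, the 7 loci had similar numbers of peaks. The median was 5 peaks for the 7 genes and 4 for all genes, whose quartiles were 2 and 6. At least 6 peaks, as at Mbp and Gpr17, were found for 29.3% of genes, and at least 2, as at Pdgfra, for 81.8%. Per 100 kb of window, 6 of the 7 genes lay above the median of 2.71, and Pdgfra, with 1.36, lay below the lower quartile of 1.44. With replicate 1 taken without regard to replicate 2, a gene-end peak was found for 5 of 7, against 60.4% of protein-coding genes, and with peaks required to share 50% of their lengths for 1 of 7, against 45.4%. Of the 7 genes, Olig1, Olig2 and Gpr17 are shorter than 10 kb, and 36.1% of protein-coding genes of that size had a summit inside. The nearest no-antibody peak to any of the 7 was 53.2 kb from Nkx2-2.

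The other genes of the lineage were followed in 4 lists. Of 40 genes, 24 (60.0%) had a reproducible peak at a gene end, against 52.4% of protein-coding genes. All 40 had one in the window, as did 92.8% of protein-coding genes. The list did not stand above the series with a stricter q or overlap. It had 15 (37.5%) against 40.4% with −log10 q of at least 5 and 18 (45.0%) against 45.4% with 50% reciprocal overlap. With a gene end taken as within 500 bp it had 18 (45.0%) against 43.2%, and within 2.5 kb 29 (72.5%) against 60.7%. The median was 4 peaks in the window, as over all genes. A no-antibody peak was in the window of 15 of 40, against 26.6% of protein-coding genes. Gene-end peaks were counted for 12 of 18 transcription factors, 7 of 9 signals and receptors, 2 of 6 premyelinating genes and enzymes, and 3 of 7 myelin genes.

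Among the transcription factors, Myrf, which switches on myelin genes, had the strongest gene-end peak, with fold enrichments of 8.14 and 8.37. Sox8, a relative of Sox10, had 6.61 and 10.7 at its 3′ end, and another reproducible peak, chr17:25570199-25570915, overlapped its promoter window. Sox5, which restrains early progenitors, had 7.06 and 6.31. Sox5 and Tcf7l2, an effector of Wnt signalling, had the most peaks, with 20 and 15, over genes of 954 and 192 kb. Id2 and Nfia were among the 6 without a gene-end peak. So was Nkx6-1, though a reproducible peak overlapped its promoter window. Ptprz1, a receptor phosphatase of progenitors, led the signals and receptors with 11.9 and 14.0, above 92.1% of reproducible peaks and above every peak at the 7 main loci by the lower fold. Lpar1, a lysophosphatidic acid receptor, followed with 9.55 and 9.44, and Lingo1, a brake on differentiation, with 6.90 and 9.13. Pdgfa, the ligand of the Pdgfra receptor, had 11 peaks in its window, against 2 at Pdgfra. None lay within 1 kb of either end of the gene. At 1 of its 2 promoter windows a reproducible peak, chr5:138994127-138994303, ran over the start site and 22 bases before it. Shh, which induces Olig2, had 4 peaks and none at an end.

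Ugt8a, an enzyme of myelin galactolipid synthesis, had a gene-end peak of 8.11 and 8.39, and the tetraspanin gene Cd9 one of 5.14 and 4.63. Cnp and Enpp6 had 5 peaks each in the window, and Aspa and Bcas1 were among the 4 of this list without a peak at an end. Of the myelin genes, Mal had 7.01 and 5.74, the tight junction gene Cldn11 8.37 and 5.68, and Mag, a myelin adhesion protein, 6.28 and 4.35. Mag had 14 peaks in its window, 12.1 per 100 kb, and Mobp had 7. Mobp and Mog were among the 4 myelin genes without a gene-end peak.

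**Figure D4:**
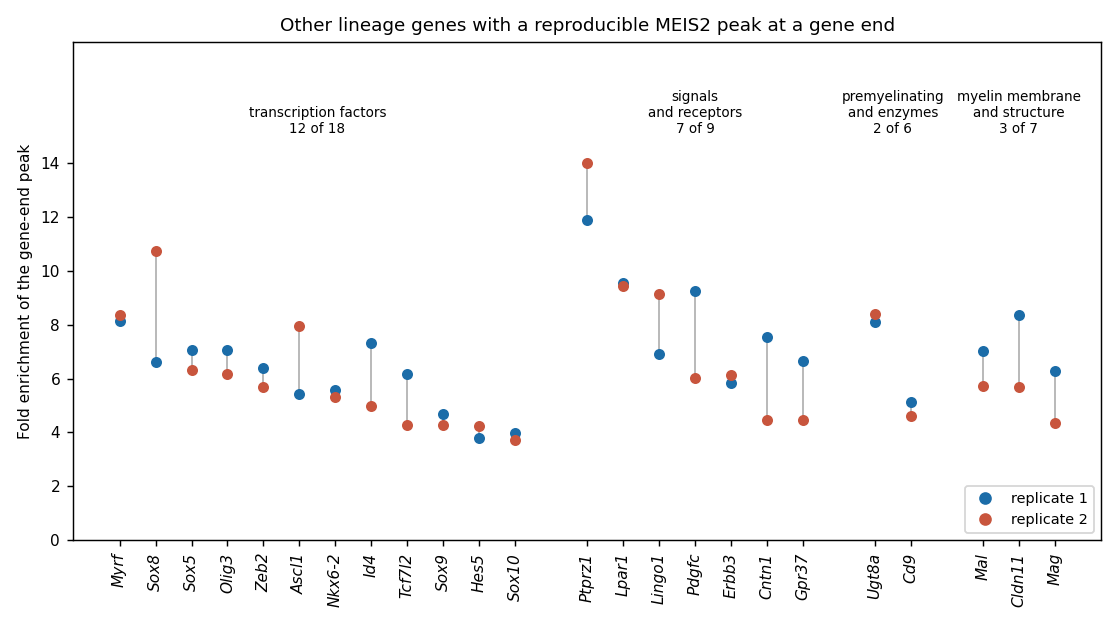
Fold enrichment in MEIS2 replicate 1 and replicate 2 (y axis) of the strongest reproducible gene-end peak of each of the 24 other lineage genes that have one, by list, with a line joining the libraries. The count above each list is the number of its genes with such a peak, and Ptprz1 stands highest, at 11.9 and 14.0.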

How the data were processed

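CUT&Tag peaks of 2 MEIS2 libraries and 1 no-antibody library were used, grouped by the antibody given in the labels. MACS 2.2.7.1 was run on every library separately, without a control file and with a q cutoff of 0.05, per the file headers. Per the submitters' processing notes, the tools were Trimmomatic, Picard, Bowtie2 2.3.4 and MACS2 2.1.4, on mm10, so the MACS versions given differ. Pileup, as deposited, is a signal without depth scaling, fold enrichment is a ratio that the authors' caller computed within a library, and the deposited −log10 p and q values were used only for a stricter threshold. Fold values were therefore also ranked within each library.

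Peaks on chromosomes 1 to 19, X and Y were kept. Overlap meant at least 1 bp, a locus was the gene plus 50 kb on either side, and a gene end meant a summit within 1 kb of either end of the RefSeq gene (GRCm38.p6, the assembly that mm10 names). The gene table has no strand or exons, so exons and introns were not told apart, and strand and start sites came from the RefSeq promoter table where it holds the gene. Where several replicate 2 peaks overlapped a replicate 1 peak, the one of highest fold enrichment was taken. Percentiles of a reproducible peak rank the lower of its fold enrichments in the replicates. No test was made, since the control is 1 library and peaks are not replicates, and counts are set beside those over all protein-coding genes. The labels do not pair replicates with controls. The counting was checked on simulated intervals (Python 3.11.15, pandas 2.3.3).

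The 7 genes, the lists and the rule for named genes were chosen with earlier results of these data known. The rule named all members and their peaks and, for every list, the top 3 gene-end peaks at most, up to 2 genes with the most peaks and up to 2 without, in alphabetical order. Since every listed gene had a peak in its window, the last were taken among genes without a gene-end peak. Single-library peaks, Cntn1 and Tcf7l2 as promoters, Nkx6-1, and the promoters printed were chosen after their values were seen. Sequences under the peaks away from promoters were not analysed here.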

Additional observations from a re-analysis of the deposited data

How the results depend on the processing

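The number of genes of the 7 with a reproducible peak in the window was 7 under every setting tried. The 28 peaks at the 7 loci became 12 with −log10 q of at least 5 in every library, 13 with windows of 10 kb and 45 with windows of 100 kb. With 1 MEIS2 library left out, the count ranged from 45 (without replicate 1) to 55 (without replicate 2). The median of 5 peaks per locus became 3 with 50% reciprocal overlap, 2 with −log10 q of at least 5, 1 with 10 kb and 8 with 100 kb, and 7 and 8 with replicate 1 or 2 left out, where the medians over all protein-coding genes were 3, 2, 1, 6, 5 and 6. A gene-end peak was held by 3 of the 7 genes as reported (52.4% of protein-coding genes), by 1, Mbp, with 50% reciprocal overlap (45.4%) and by 2, Olig1 and Nkx2-2, with −log10 q of at least 5 (40.4%). With a library left out it was held by 3 (55.3%, without replicate 1) to 5 genes (60.4%, without replicate 2, Cspg4 and Gpr17 being added). Within 2.5 kb of an end Olig2 was added (60.7%), and within 500 bp Olig1 was lost (43.2%). Of the 40 other lineage genes, 24 (60.0%) had a gene-end peak as reported. The count was 15 (37.5%) with −log10 q of at least 5 and 18 (45.0%) with 50% reciprocal overlap. The list thus lay above the series as reported and not above it with the stricter q or overlap. Within 500 bp of an end 18 (45.0%) had one, against 43.2%, and within 2.5 kb 29 (72.5%), against 60.7%. With a library left out, 28 (70.0%, without replicate 2) to 29 (72.5%, without replicate 1) had one. Alternatives for this list and for the reproducible share were chosen after the data were seen. The share of replicate 1 peaks at the loci that were reproducible was 38.2% with 50% reciprocal overlap and 40.0% with −log10 q of at least 5, against 54.8% and 59.4% over the series. Leaving out the no-antibody filter changed no count at the 7 loci. No paired analysis was possible because the result comes from no test and the control is 1 library. Pileups of 5 to 23 tags limit what can be said of single peaks.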

Other observations

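Over the 28 peaks the fold enrichments of the libraries had a Spearman correlation of 0.41, against 0.72 over all 47809 reproducible peaks, each across peaks that share their library and are not independent. Single-library calls were spread unevenly: Cspg4 had 9 peaks of replicate 1 alone and 2 of replicate 2 alone, Mbp 8 and 4, Gpr17 5 and 0, and Pdgfra 0 and 7. Both Cspg4 and Gpr17 had a gene-end peak in replicate 1 that replicate 2 lacked, with pileups of 12 tags each. In windows of 100 kb, the Olig1 locus held 10 reproducible peaks, against 5 in windows of 50 kb. Wider windows raised counts generally: the median rose from 5 to 8 for the 7 loci and from 4 to 6 over all protein-coding genes.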
